A study of Mus musculus with 8 samples.

Results

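The 50 genes described here encode the actins, the thymosins and other proteins that bind or regulate actin, and were taken by symbol from a table of 23469 genes measured in macrophages of mouse ovarian cancer ascites. All 50 symbols were in the table. Female Ms4a3TdT C57BL/6 mice, 4 to 5 weeks old at injection and otherwise untreated, received ID8 cells, a mouse ovarian surface epithelial line, and ascites was collected 65 days later. In these mice the Ms4a3 promoter, active in granulocyte and monocyte progenitors, drives Cre, which switches on tdTomato for good in their progeny. From the ascites of these mice, tdTomato-negative macrophages were sorted as AeEM (ascites-enriched embryonic macrophages, 4 libraries) and tdTomato-positive macrophages as AeMM (ascites-enriched monocyte-derived macrophages, 4 libraries), so that AeEM is a population defined by the lack of the label. The 8 libraries came from 4 mice, but no source used here says which libraries share a mouse, and the test takes them as unpaired. Both gates took live CD45+, Ly6G-, Siglec F-, Ly6C-, F4/80+ and CD11b+ cells, and the comparison asks how the transcriptomes of macrophages of these 2 origins differ.

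Actin cycles between a pool of monomers and filaments that push, pull and shape the cell. β-Thymosins hold monomers in reserve, profilin delivers them to growing filament ends, the Arp2/3 complex starts branches, capping proteins stop growth, and cofilin cuts old filaments so that their monomers return to the pool. Macrophages rely on this cycle to crawl, ruffle their membrane and engulf particles.

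Values are log2(TPM + 1), where TPM is a transcript's share of the library, scaled to a common total and corrected for gene length. An adjustment made before deposit left the mean of a gene almost equal in 3 sets of libraries. The libraries numbered 1 form a set, those numbered 2 another, and those numbered 3 or 4 the last. A difference is AeEM minus AeMM on the log2(TPM + 1) scale, so folds of low genes are understated. The 8801 genes that averaged 1 TPM or more were tested, and a gene passed when its limma p, adjusted over all of them, was under 0.05. A plain comparison of 4 with 4 libraries takes no account of the adjustment between sets, so each call carries a second adjusted p from a fit that has the sets as a term ("with the sets"). The back-transformed values of a library summed to between 958862 and 974303, and between 8498 and 8753 genes reached 1 TPM. Read depth is unknown. SDs are those between the 4 libraries of a group, which the labels call biological replicates. SEs and confidence intervals are those of the unpaired limma fit, which draws part of each variance from the other genes.

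Tmsb4x and Tmsb10, the thymosins β4 and β10, are the pair on which the results turn, and their coding sequences are shown to let the likeness of the paralogues be seen. Both open reading frames are 135 bases long with the stop codon, 95 of these bases are identical (70.4%), and the longest identical run is 10 bases. Capitals mark the 40 positions at which the sequences differ.
Tmsb4x: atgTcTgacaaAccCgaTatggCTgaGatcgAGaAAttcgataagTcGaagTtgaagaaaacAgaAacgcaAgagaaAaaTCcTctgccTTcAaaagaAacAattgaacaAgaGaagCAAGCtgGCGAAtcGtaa
Tmsb10: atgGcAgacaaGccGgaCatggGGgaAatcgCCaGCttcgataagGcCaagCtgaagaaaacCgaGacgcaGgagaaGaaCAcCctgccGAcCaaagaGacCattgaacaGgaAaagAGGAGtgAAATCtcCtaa
No stretch of 100 bases occurs in both genes.

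Of the 50 genes, 47 were tested, and 8 of them (17%) were higher in AeEM: Tmsb10, Pfn1, Twf2, Cfl1, Gsn, Capg, Arpc4 and Actg1. Among all genes tested, 1.25% were higher. No member was lower by the limma test, against 1.16% of all genes, while at an unadjusted p under 0.05 limma gave 12 members higher (8.7% of all genes) and 1 lower, Wasf2 (9.33% of all genes). The members are more abundant than most genes, and among the 1507 genes averaging 30 TPM or more the share called was 3.05% higher and 3.45% lower. In the fit with the sets, 1 member was called higher, Tmsb10, against 0.102% of all genes, and none lower, against 0.0568%. In that fit 10 members were higher at an unadjusted p under 0.05, against 4.89% of all genes, and none lower, against 4.75%. With the replicate number as a block, no member passed in limma, against 0.0341% of all genes higher and 0.0227% lower. At an unadjusted p under 0.05 that fit gave 11 members higher and 0 lower, against 5.45% and 5.14% of all genes. In bulk libraries, fewer cells of a type and less RNA per cell cannot be told apart. The median difference of the 47 members was 0.09, and that of all genes was −0.01. Of the members, 33 had a difference above 0, against 48.8% of all genes. The libraries of the groups did not overlap for 10 members in the higher direction (5.72% of all genes) and for 1, Lcp1, in the lower (6.53% of all genes). Without Tmsb10, 7 of 46 tested members (15.2%) were called higher by the unpaired test.

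**Figure D1:**
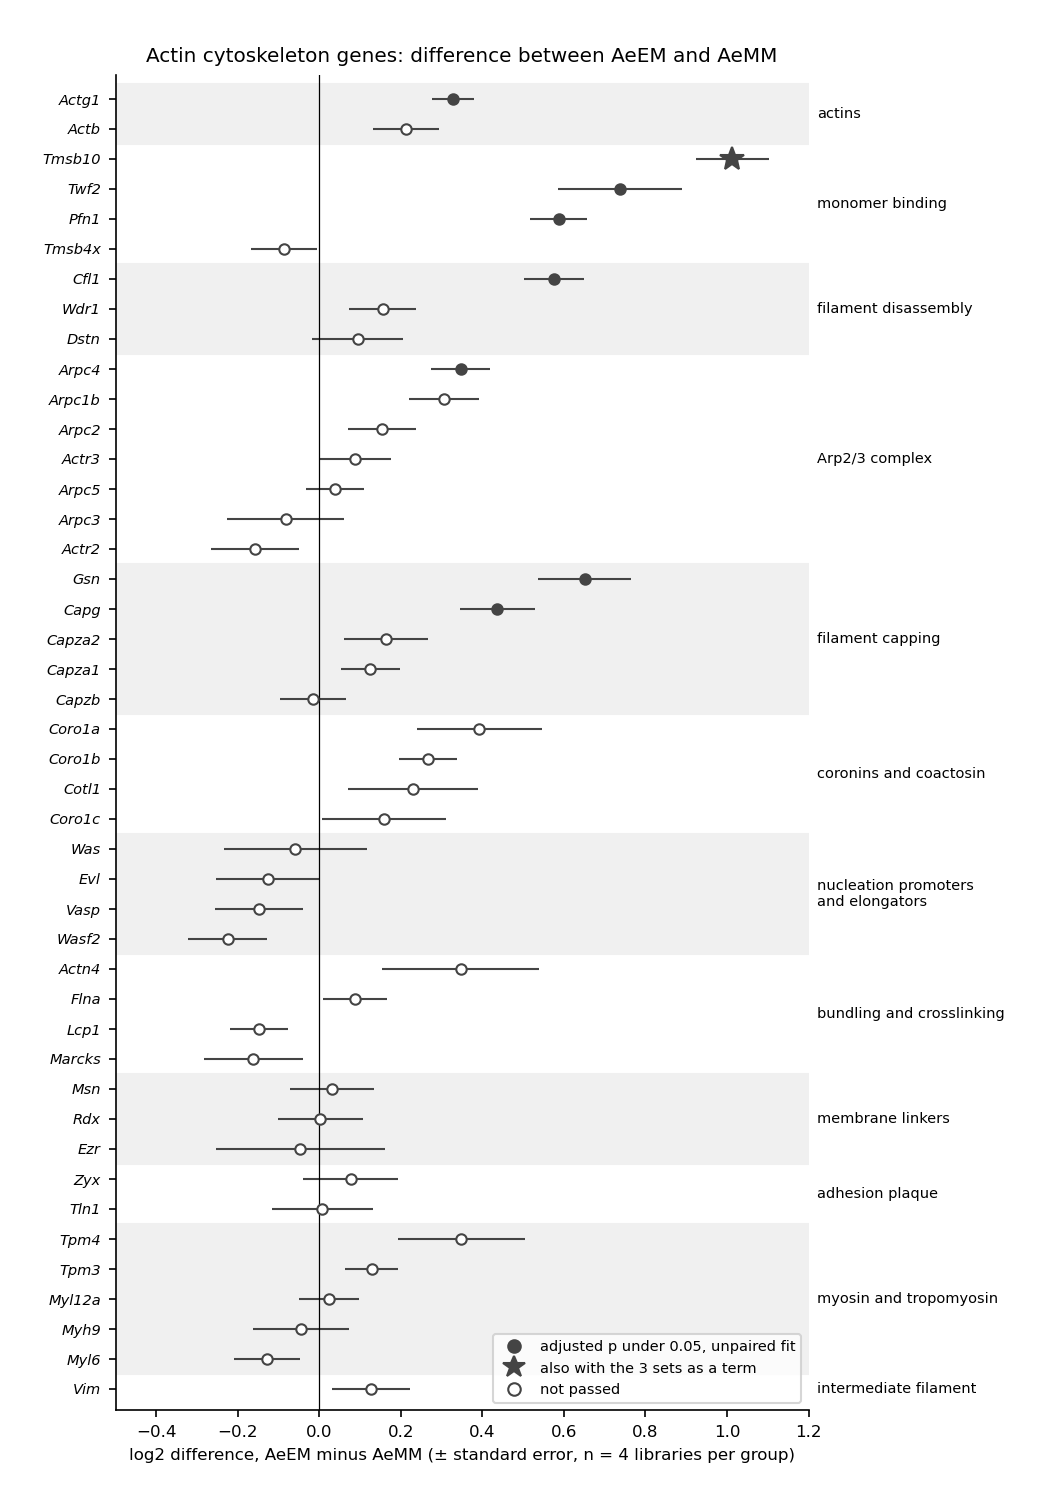
The log2 difference AeEM minus AeMM (x axis) is drawn for 44 of the 47 tested genes, grouped by role. Bars show the standard error of the difference from the unpaired limma fit, with 4 libraries a group. Filled points mark genes that passed the unpaired limma test. A star marks the gene that also passed in the fit with the sets, and open points mark the rest. Tmsb10 lies at 1.01, the other 7 filled points lie between 0.33 and 0.74, and the open points lie between −0.22 and 0.39.

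Tmsb10, which binds actin monomers, showed the largest difference of the 47 tested members. Its level on the log2 scale was 9.67, 9.43, 9.72 and 9.69 in AeEM replicates 1 to 4, and 8.58, 8.82, 8.56 and 8.50 in the AeMM replicates. All 4 AeEM libraries lay above all 4 AeMM libraries, and the closest values were those of the 2 libraries numbered 2. The means were 9.63 ± 0.13 and 8.61 ± 0.14 (SD, n = 4), or 792 and 392 TPM, a 2.02-fold level in AeEM. The difference was 1.01 (SE 0.09, 95% confidence interval 0.81 to 1.22, limma adjusted p = 0.00163, and 0.0288 with the sets). Under the replicate block its adjusted p was 0.0532. Within the sets the difference was 1.09, 0.61 and 1.17. A two-sided exact permutation test over the 70 ways to draw 4 of the 8 libraries gave p = 0.0286, the smallest value it can give. This test takes no account of the adjustment between sets, after which the 70 splits are not on an equal footing, here or in the ratios below. Permuting within the sets gave 0.0833 and within pairs of equal number 0.125, again the smallest values those designs allow. Among all 8801 genes tested, Tmsb10 ranked 76 by its difference in favor of AeEM. Among the 566 genes averaging 100 TPM or more, 3 had a larger difference in favor of AeEM: Retnla, Ear2 and S100a4.

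The Tmsb10 gene lies at chr6:72957347-72958748 on the minus strand (mm10, GENCODE M21). It has a near-copy at chr7:24862213-24862697, Gm9844, which GENCODE annotates as protein-coding and RefSeq as a pseudogene. Of the 386 stretches of 100 bases in Gm9844, 115 (29.8%) also occur in Tmsb10, so the authors' counting could split reads between them. Gm9844 was listed at 7.05 ± 0.14 in AeEM and 5.88 ± 0.17 in AeMM (SD, n = 4), a difference of 1.18 (SE 0.11, adjusted p = 0.00163, and 0.0288 with the sets). With the TPM of both genes summed, the difference of Tmsb10 was 1.04, and all 4 AeEM libraries again lay above the AeMM libraries.

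Tmsb4x, the main monomer-sequestering thymosin of blood cells, was the most abundant member, with 4.70% to 5.91% of all TPM in AeEM and 5.06% to 5.74% in AeMM. It lies at chrX:167207093-167209315. Its log2 levels were 15.56, 15.49, 15.81 and 15.47 in AeEM and 15.74, 15.76, 15.57 and 15.62 in AeMM. The groups overlapped, since AeEM replicate 3 was the highest library of all and the other AeEM libraries were the 3 lowest. The difference was −0.09 (SE 0.08, 95% confidence interval −0.27 to 0.10, adjusted p = 0.644, and 0.847 with the sets). That interval holds a rise of at most 0.10, while the interval of Tmsb10 starts at 0.81. Both intervals come from the unpaired fit, which takes no account of the adjustment between sets.

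The ratio of the paralogues inside a library does not depend on how the library was scaled. Tmsb10 minus Tmsb4x was −5.90, −6.06, −6.09 and −5.78 on the log2 scale in AeEM and −7.16, −6.95, −7.01 and −7.12 in AeMM. Expressed in TPM, Tmsb4x exceeded Tmsb10 between 55.2 and 68.2 times in AeEM and between 124 and 143 times in AeMM, and the groups did not overlap. The difference of the log2 ratio was 1.10 (exact permutation p = 0.0286, 0.0833 within the sets, and 0.125 within pairs). Over the 4 paralogue pairs compared, the first of these p-values was 0.0381 after adjustment. Neither 0.0286 nor 0.0381 takes account of the adjustment between sets. Of these pairs, 3 were chosen after their values had been seen, and the difference of Tmsb10 was known when the members were chosen. The p-value is therefore no independent support.

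**Figure D2:**
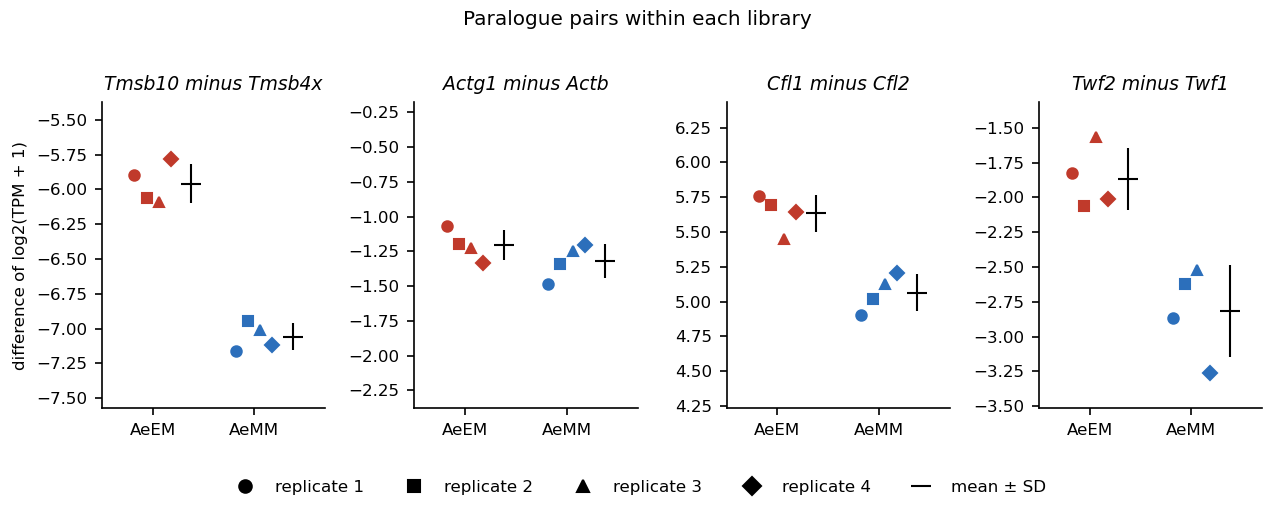
Each panel plots, for 1 pair of paralogues, the difference of their log2(TPM + 1) levels within each library (y axis), with a symbol for each replicate number and the mean ± SD beside each group of 4 libraries. AeEM lies above AeMM without overlap for Tmsb10 against Tmsb4x, Cfl1 against Cfl2 and Twf2 against Twf1, and the groups overlap for Actg1 against Actb.

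The other monomer-binding members, Pfn1 and Twf2, were also higher in AeEM. Pfn1 (chr11:70651850-70654644) encodes profilin 1, which carries ATP-bound monomers to filament ends. Its levels were 11.15, 11.07, 11.11 and 11.16 in AeEM and 10.45, 10.59, 10.70 and 10.39 in AeMM. The AeEM libraries lay close together, and all were above the highest AeMM library. The difference was 0.59 (SE 0.07, 95% confidence interval 0.43 to 0.75, adjusted p = 0.00441, and 0.0605 with the sets), a 1.50-fold level, and within the sets it was 0.70, 0.48 and 0.58. Twf2 (chr9:106203108-106215389) encodes twinfilin 2, which binds monomers and caps filaments. It was at 4.39, 4.18, 4.49 and 4.27 in AeEM and at 3.53, 3.75, 3.90 and 3.21 in AeMM, again without overlap, and the AeMM libraries were the more spread. The difference was 0.74 (SE 0.15, 95% confidence interval 0.39 to 1.08, adjusted p = 0.0441, and 0.259 with the sets). Its call held only when AeMM replicate 3 was the library left out, and the other 7 omissions gave adjusted p up to 0.139. Twf1, the paralogue with the higher level, had a difference of −0.22 (adjusted p = 0.141), and Twf1 exceeded Twf2 between 3.05 and 4.36 times in AeEM and between 6.08 and 10.6 times in AeMM. The difference of the Twf2 minus Twf1 ratio, a pair chosen after its values were seen, was 0.95 (exact permutation p = 0.0286, adjusted 0.0381 over the 4 pairs). Permuting within the sets gave 0.0833 and within pairs of equal number 0.125. Those designs allow no smaller values, so they cannot decide whether the call holds.

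In the unpaired fit, the interval of Tmsb10 did not reach those of Pfn1 and Cfl1, whose upper limits were 0.75 and 0.74. It overlapped those of Twf2 and Gsn. Whether Tmsb10 differed more than each of these genes was not tested.

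**Figure D3:**
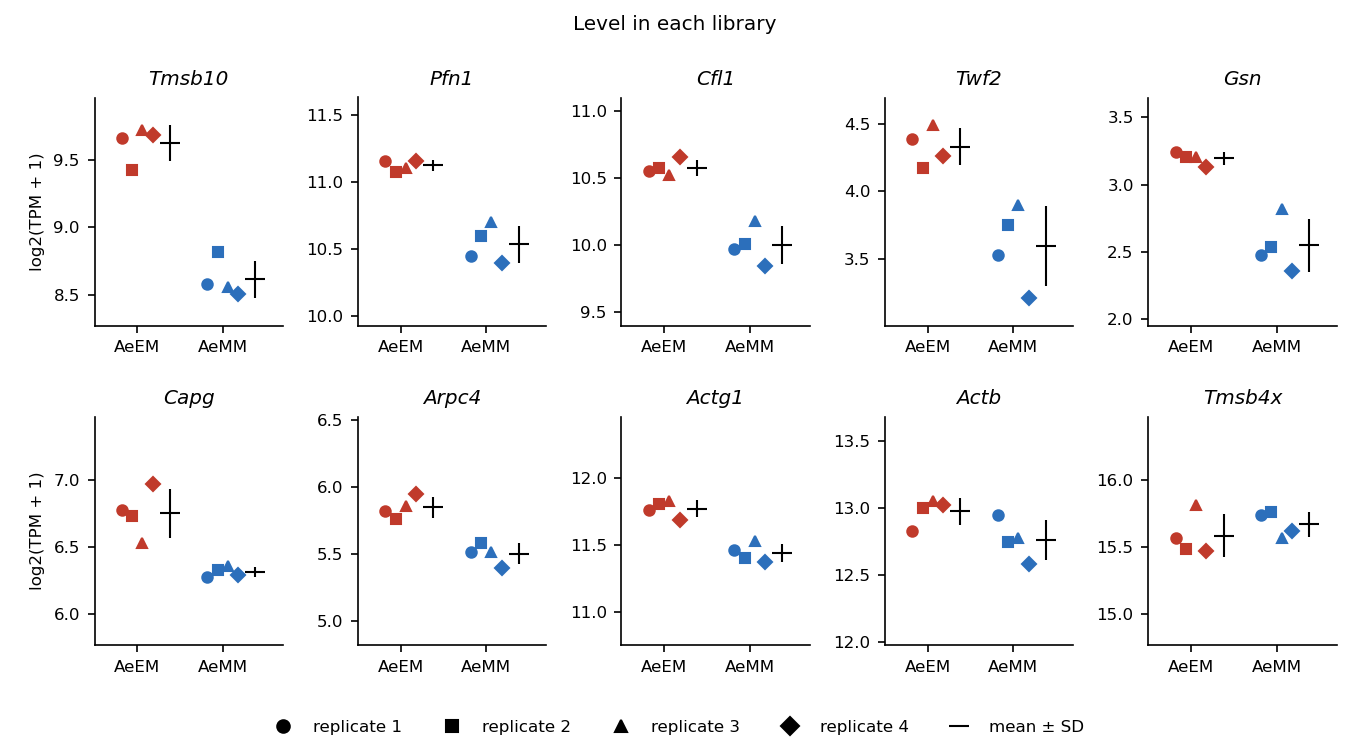
The log2(TPM + 1) level (y axis, with its own range in each panel and a common span) of 10 genes is plotted for every library, with AeEM in red, AeMM in blue, a symbol for each replicate number and the mean ± SD beside each group of 4 libraries. In the first 8 panels all AeEM libraries lie above all AeMM libraries, and in the panels of Actb and Tmsb4x the groups overlap.

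Among the members that take filaments apart, Cfl1 rose and Dstn and Wdr1 did not pass. Cfl1 (chr19:5490455-5495201) encodes cofilin 1, the main filament-severing protein of non-muscle cells. Its levels were 10.55, 10.58, 10.52 and 10.66 in AeEM and 9.97, 10.01, 10.18 and 9.84 in AeMM. All AeEM libraries lay above the highest AeMM library, replicate 3. The difference was 0.58 (SE 0.07, 95% confidence interval 0.41 to 0.74, adjusted p = 0.00613, and 0.0663 with the sets), and it was 0.58, 0.57 and 0.58 within the sets. Of its stretches of 100 bases, 9.47% are shared, most with Snx32, a gene that overlaps it and had a mean of 1.01 TPM. Dstn, which encodes the related depolymerizing factor destrin, had a difference of 0.09 (95% confidence interval −0.16 to 0.35), and Cfl2, the muscle-type cofilin and no member, had a difference of 0.00 (SE 0.12, adjusted p = 0.994). Cfl1 exceeded Cfl2 between 45.0 and 56.0 times in AeEM and between 30.8 and 38.5 times in AeMM, and the difference of their log2 ratio was 0.57 (exact permutation p = 0.0286, adjusted 0.0381 over the 4 pairs). This pair too was chosen after its values were seen. Its exact permutation p was 0.0833 within the sets and 0.125 within pairs of equal number. Both are again the smallest values possible there, so they cannot decide whether the call holds. Wdr1, a cofactor of cofilin, had a difference of 0.16 (SE 0.08, adjusted p = 0.369).

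Of the cytoplasmic actins, Actg1 passed and Actb did not. Actg1 (γ-actin, chr11:120345690-120348542) was at 11.76, 11.81, 11.83 and 11.69 in AeEM and at 11.46, 11.41, 11.53 and 11.38 in AeMM. The groups did not overlap, and the gap between the lowest AeEM and the highest AeMM library was small. The difference was 0.33 (SE 0.05, adjusted p = 0.0163, and 0.187 with the sets), a 1.26-fold level. Leaving out replicate 1 or replicate 2 of either group ended the call, with adjusted p up to 0.0689. Pseudogenes that are not in the table share 29.9% of the 100-base stretches of Actg1, so its level is uncertain to that extent. Actb (β-actin, chr5:142903115-142906754), the second most abundant member, was at 12.83, 13.00, 13.06 and 13.02 in AeEM and at 12.95, 12.75, 12.78 and 12.58 in AeMM. Here the libraries numbered 1 went the other way, and the groups overlapped. The difference of Actb was 0.21 (SE 0.08, 95% confidence interval 0.03 to 0.40, adjusted p = 0.211, and 0.542 with the sets), with −0.12, 0.25 and 0.36 within the sets. The Actg1 minus Actb ratio differed by 0.12 (exact permutation p = 0.20), so these data do not show that the actins differed from each other.

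The filament-capping members gave 2 calls out of 5, Gsn and Capg, which belong to the same gelsolin family. Gsn (chr2:35256380-35307892) encodes gelsolin, which severs and caps filaments in response to calcium. It was a low-level gene at 3.25, 3.20, 3.21 and 3.13 in AeEM and 2.48, 2.53, 2.81 and 2.35 in AeMM, or 8.17 against 4.88 TPM. The AeEM libraries were close together, and AeMM replicate 3 was the nearest to them. The difference was 0.65 (SE 0.11, adjusted p = 0.0252, and 0.253 with the sets), and it was between 0.58 and 0.77 within the sets. The call of Gsn held without AeEM replicate 3, AeEM replicate 4 or AeMM replicate 3 and was lost without any of the other 5 libraries, with adjusted p up to 0.0985. Capg (chr6:72544391-72562983) encodes a macrophage capping protein that caps without severing. It was at 6.77, 6.73, 6.52 and 6.96 in AeEM and at 6.27, 6.33, 6.36 and 6.29 in AeMM, without overlap, and the AeEM libraries were the more spread. The difference was 0.44 (SE 0.09, adjusted p = 0.0467, and 0.288 with the sets). Its call held only without AeEM replicate 3, and the other omissions gave adjusted p up to 0.144. The subunits of the heterodimeric capping protein moved less, from −0.02 for Capzb to 0.16 for Capza2, and none of the 3 passed. The groups did not overlap for Capza1, which had a difference of 0.13 (SE 0.07, adjusted p = 0.413). Of the 100-base stretches of Capza1, 51.7% are shared, most with Gm3608, a pseudogene not in the table.

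Capg and Tmsb10 lie in the same region of chromosome 6, and the tested genes between them did not pass. Retsat had a difference of −0.07, Tgoln1 of −0.17 and Kcmf1 of −0.28, all in the other direction from Capg and Tmsb10.

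The Arp2/3 complex, which nucleates branched filaments, gave 1 call among 7 subunits. Arpc4 (chr6:113378115-113390448) was at 5.82, 5.77, 5.86 and 5.95 in AeEM and at 5.52, 5.59, 5.52 and 5.40 in AeMM, without overlap. The difference was 0.35 (SE 0.07, adjusted p = 0.0467, and 0.342 with the sets), and the call was lost when any 1 of the 8 libraries was left out, with adjusted p between 0.0742 and 0.144. Ttll3, which overlaps Arpc4 and was under 1 TPM, shares 8.01% of its 100-base stretches. The hematopoietic subunit Arpc1b, at 7.90, 7.91, 7.88 and 7.80 in AeEM and 7.51, 7.53, 7.81 and 7.42 in AeMM, had nearly the same difference of 0.31 (SE 0.08, adjusted p = 0.102). AeMM replicate 3 alone lay within the AeEM range. The other 5 subunits had differences between −0.16 for Actr2 and 0.15 for Arpc2, and none of these passed. Of the 7 subunits, 5 had differences above 0 and 2 below. Whether the subunits differed from each other was not tested.

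Of the coronins and the coactosin Cotl1, which bind along filaments, none of the 4 passed, and all had differences above 0. They ran from 0.16 for Coro1c to 0.39 for Coro1a (SE 0.15, adjusted p = 0.219). Coro1a, the leukocyte coronin, was at 6.68, 6.71, 6.50 and 6.45 in AeEM and at 6.10, 6.08, 6.67 and 5.92 in AeMM, where replicate 3 again fell among the AeEM libraries. Coro1b did not overlap between the groups, with a difference of 0.27 (SE 0.07, adjusted p = 0.0891, and 0.425 with the sets). Ptprcap, which is not in the table, shares 8.67% of the 100-base stretches of Coro1b.

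None of the 4 members that start or extend filaments on command passed. All 4 had differences below 0, as had 4503 of the 8801 genes tested. Outside the members, 8 of the 11 WASP and WAVE genes tested were below 0, and 1 of the 5 formins tested. Was, the leukocyte activator of Arp2/3, had a difference of −0.06, the polymerases Evl and Vasp had −0.13 and −0.15, and Wasf2, a subunit of the WAVE complex, had −0.22 (SE 0.10, 95% confidence interval −0.44 to −0.01, adjusted p = 0.264, and 0.689 with the sets). Wasf2 was at 3.10, 3.11, 3.25 and 3.25 in AeEM and at 3.47, 3.46, 3.45 and 3.22 in AeMM. AeMM replicate 4 stood apart from the other AeMM libraries and lay among the AeEM libraries.

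The ezrin, radixin and moesin genes, which tie filaments to the membrane, ranged from −0.05 for Ezr to 0.03 for Msn. Ezr was the least precise of these, with an interval from −0.52 to 0.42.

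Of the 4 bundling and crosslinking members tested, 2 had differences above 0 and 2 below, and none passed. Actn4, an α-actinin, had a difference of 0.35 (SE 0.19, adjusted p = 0.395) and Flna, filamin A, of 0.09. Lcp1, which encodes the leukocyte bundler L-plastin, was at 4.90, 4.88, 4.89 and 4.90 in AeEM and at 5.04, 5.05, 5.15 and 4.94 in AeMM. It was the only member whose AeEM libraries all lay below the AeMM libraries, with a difference of −0.15 (SE 0.07, adjusted p = 0.317). Marcks, a membrane-bound crosslinker, had the lowest difference of the role, −0.16 (SE 0.12, adjusted p = 0.548). Actn1 and Fscn1 were under 1 TPM on average and were not tested; their group means were 0.110 and 0.0787 TPM for Actn1, and 0.487 and 0.160 TPM for Fscn1, which encodes the bundler fascin.

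Among adhesion and contractile genes none passed. Tln1, talin, had a difference of 0.01 and Zyx, zyxin, of 0.08, while Vcl, vinculin, was near 0, at 0.0826 TPM in AeEM and 0.0635 TPM in AeMM, and was not tested. Tpm4, a tropomyosin, had the highest difference of the contractile genes, 0.35 (SE 0.16, adjusted p = 0.287), and differed between the sets, with −0.24, 0.16 and 0.74. Myl6, a myosin light chain, had the lowest, −0.13 (SE 0.08, adjusted p = 0.456). Vim, which encodes the intermediate filament protein vimentin, had a difference of 0.13 (SE 0.10, adjusted p = 0.551).

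**Figure D4:**
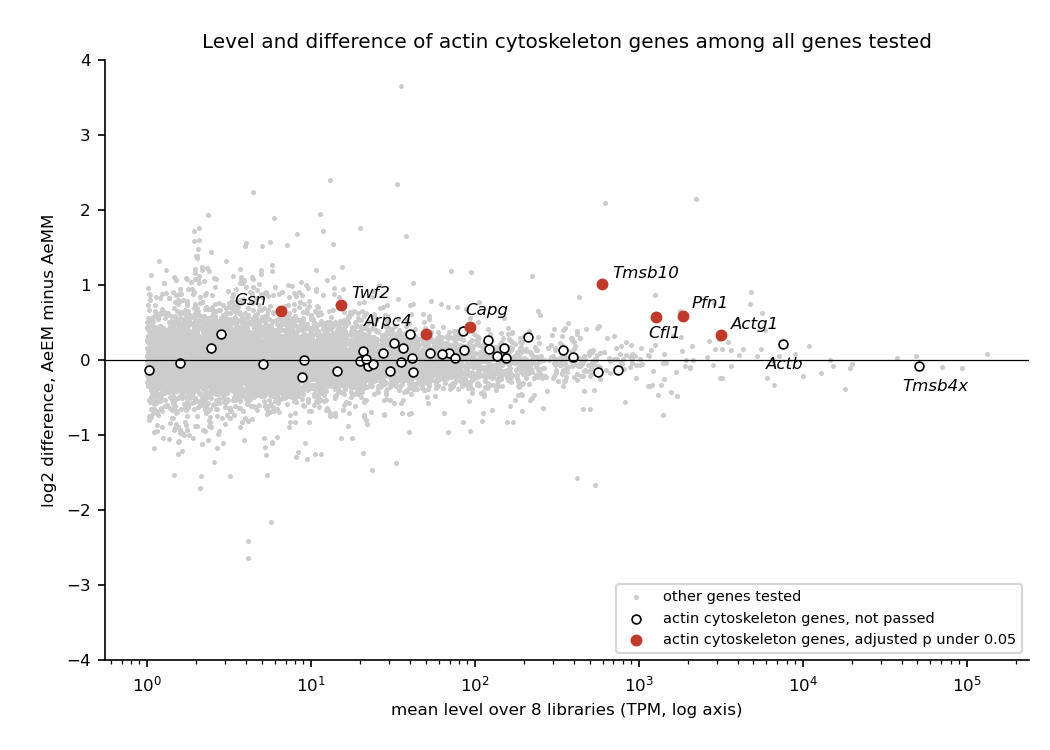
The log2 difference AeEM minus AeMM (y axis) is plotted against the mean level over the 8 libraries (x axis, TPM on a log axis) for the 8801 genes tested, with the actin cytoskeleton genes as circles, filled in red where the unpaired limma adjusted p was under 0.05. Called members run from Gsn near 6.52 TPM to Actg1 near 3146 TPM, and Tmsb4x, the most abundant member at 50821 TPM, lies near 0.

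Called members were found at low and high levels. Mean levels of the 8 ran from 6.52 TPM (Gsn) over 15.2 (Twf2), 50.6 (Arpc4), 92.7 (Capg), 592 (Tmsb10), 1278 (Cfl1) and 1858 (Pfn1) to 3146 (Actg1). Across the 47 tested members, which share the 8 libraries, the difference had a Spearman correlation of −0.32 with exonic length and of 0.25 with level, against −0.06 and −0.03 across 8721 tested genes with a known length. Summed over the members other than Tmsb4x, transcripts took 2.01% to 2.15% of all TPM in AeEM and 1.57% to 1.83% in AeMM, and the groups did not overlap. The sum is weighted toward its most abundant genes, Actb (mean 7534 TPM), Actg1, Pfn1 and Cfl1, of which Actb did not pass. With Tmsb4x included, the sums were 6.81% to 8.07% and 6.76% to 7.50%, and they overlapped.

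The other genes of the pathway, 120 genes listed in like roles, were called about as often as all genes. Of the 82 tested, 1 was higher (1.22%, against 1.25% of all genes) and 1 was lower (against 1.16%), and the median difference was −0.01, as over all genes. Whether this list differed from the members was not tested. Tagln2, a transgelin that binds filaments, was higher by 0.49 (SE 0.09, adjusted p = 0.0259, and 0.199 with the sets). Gmfg, a glia maturation factor that takes Arp2/3 branches apart, was lower, with a difference of −0.39 (SE 0.07, adjusted p = 0.0225, and 0.265 with the sets). The remaining differences ran, list by list, from Mtss1 (−0.42) to Srf (0.02) among monomer binders and regulators of actin transcription, from Gmfg to Arpc1a (0.36) among Arp2/3 subunits and inhibitors, from Cyfip1 (−0.20) to Hcls1 (0.34) in the WASP and WAVE group, and from Fhod1 (−0.08) to Diaph1 (0.37) among formins. They ran from Ssh2 (−0.28) to Pak1 (0.27) among cofilin regulators, from Marcksl1 (−0.31) to Tagln2 among severing and bundling genes, from Parvg (−0.38) to Tes (0.54) among adhesion genes, and from Myl9 (−1.09, SE 0.45, adjusted p = 0.238) to Tpm1 (0.45) among myosins and tropomyosins. The X-linked Tmsb15 thymosins were under 1 TPM or not in the table.

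Many actin genes are known targets of serum response factor, which binds the CArG box, and the region 250 bases upstream of the start was therefore read from RefSeq (GRCm38.p6) for the 44 members with an entry. Actb, Twf2, Coro1b, Cotl1, Rac1 and Marcks had no such window and were not searched. A CArG box on either strand was present for 4 of the 44, Actg1, Arpc4, Myl6 and Vcl, against 1.62% of 27025 genes with a window of this length. Of these 4, Actg1 and Arpc4 passed the unpaired test but not the fit with the sets. Myl6 had a difference of −0.13 and did not pass, and Vcl was not tested. The windows of Actg1 and Arpc4 are shown with the CArG box in capitals, read 5′ to 3′ on the strand of the gene. They come from chr11:120348496-120348745 (minus) and chr6:113377863-113378112 (plus).
Actg1: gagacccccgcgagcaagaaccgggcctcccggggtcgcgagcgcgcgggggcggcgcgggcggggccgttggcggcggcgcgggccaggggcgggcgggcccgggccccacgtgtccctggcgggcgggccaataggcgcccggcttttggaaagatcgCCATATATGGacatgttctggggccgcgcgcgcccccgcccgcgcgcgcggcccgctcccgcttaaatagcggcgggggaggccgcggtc
Arpc4: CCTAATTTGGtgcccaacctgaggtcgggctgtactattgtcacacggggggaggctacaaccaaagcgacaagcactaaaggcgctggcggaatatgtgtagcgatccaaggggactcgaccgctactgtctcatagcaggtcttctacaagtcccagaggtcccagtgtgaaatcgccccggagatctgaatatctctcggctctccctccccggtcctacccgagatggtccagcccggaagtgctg
The letters GGGCGG, searched on both strands, were present for 32 of the 44 members, against 35.4% of genes, and TATAAA for 4, against 14.3%. For each motif the background genes were not limited to those tested here. No background matched to the members was drawn, and whether the shares differ was not tested. The 3 windows of Tmsb10 and the window of Pfn1 held GGGCGG in at least 1 case each and no CArG box, and a match of letters is a description of the window alone.

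The labelled cell type was checked against marker genes. Macrophage markers were high in both groups, with a summed level of 75229 to 83497 TPM for the 8 genes in AeEM and 76080 to 89657 TPM in AeMM, and none passed the test. Dendritic cell markers were higher in AeEM in sum, with 44.2 to 106 TPM against 6.48 to 13.4 TPM in AeMM over 8 genes. Only 3 of the 8 were tested, and Cd209a and Itgax were higher. The defining markers Zbtb46, Flt3 and Siglech were under 1 TPM in every library. Neutrophil markers were lower in AeEM in sum, with 18.9 to 22.9 TPM against 34.4 to 46.2 TPM over 7 genes in the table (S100a8 lower). The 7 T and NK cell markers overlapped, with 1.63 to 18.6 TPM in AeEM and 15.3 to 29.6 TPM in AeMM, and 1 of 3 tested, Nkg7, was lower, while Cd3e and Ncr1 were under 1 TPM in every library. Of the 4 markers of recent monocytes, Ly6c2 was lower in AeEM, and the sums were 166 to 257 and 142 to 195 TPM. Erythroid markers, mainly hemoglobin transcripts, gave the largest sums outside the macrophage list, 7665 to 12745 TPM in AeEM and 4209 to 10475 TPM in AeMM. The groups overlapped and none of the 5 genes passed, nor did any of the 4 B cell markers, at 34.3 to 84.6 and 65.2 to 76.3 TPM. Markers of cells with abundant contractile actin were low, at 2.32 to 4.48 and 1.29 to 2.62 TPM for smooth muscle and 0.204 to 1.54 and 0.438 to 1.32 TPM for fibroblasts. Markers of platelets, cells rich in Tmsb4x, ranged from 3.12 to 121 TPM in AeEM and from 14.1 to 50.2 TPM in AeMM. The part of these cells in the differences of the actin genes was not tested.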

How the data were processed

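Macrophages were sorted from ascites, 4 AeEM and 4 AeMM libraries were prepared by Smart-seq2, and the authors used fastp for clean reads, STAR 2.7.2a for mapping to mm10 and Subread featureCounts for gene counts. The values the authors deposited are on a log2 scale, log2(TPM + 1). They had been adjusted between 3 sets of libraries (replicate 1, replicate 2, replicates 3 and 4): the largest gap between the set means of a gene has a median of 0.00399. In a set of 2 libraries this leaves the values nearly mirrored about the gene's mean, so they are not independent. The conversion to TPM, the adjustment and the annotation are not given in the sources used here.

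Values were used as deposited in an unpaired fit of limma 3.58.1 (R 4.3.3) that lets the prior variance follow the level. It took the 8801 genes averaging 1 TPM or more, with Benjamini-Hochberg adjustment (threshold 0.05). A fit with the 3 sets as a term was run beside it. Single values were compared by two-sided exact permutation tests (Python 3.11.15). Those over all 70 splits, like the unpaired fit, take no account of the adjustment between sets. No source says that libraries of equal number come from 1 mouse, and a check of pairing is void after the adjustment. The scripts were tested on simulated data.

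The members and lists were chosen with earlier results of these data known. Named with values per library were Tmsb10, Tmsb4x, Actb, Actg1 and each member called in either fit, and, by its difference, the highest and lowest member of each role. Other actin genes were named where called, or where highest or lowest in their list. Members given with values per library outside this rule (Arpc1b, Coro1a, Wasf2, Lcp1), Capza1, Coro1b and the paralogue pairs other than the thymosins were chosen after their values were seen. Positions and shared 100-base stretches came from GENCODE M21, promoter windows from RefSeq. No protein sequences were used here. The values of 1 role of 3 members, and of 1 list of other actin genes, are not reported here by role, although they are part of every count.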

Additional observations from a re-analysis of the deposited data

Results flagged for a closer look

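In groups of 4 libraries, a highest or lowest value was taken as standing apart when its gap to the nearest value, as a share of the group's range, was over 0.829. Of the 94 groups formed by the 47 tested members, 3 (3.19%) held such a value, and chance gives about 1 in 20. Wasf2 was at 3.22 in AeMM replicate 4, and the nearest AeMM library was at 3.45. Rhoa was at 5.25 in AeEM replicate 3, and the nearest AeEM library was at 5.15. Marcks was at 8.86 in AeMM replicate 3, and the nearest AeMM library was at 9.29. None of the 3 genes passed the test.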

How the results depend on the processing

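The count of 8 members higher in AeEM fell to 1 with the 3 sets as a term, to 0 with the replicate block (11 at an unadjusted p under 0.05), to 5 with no filter on low values (97 of 23469 genes in all), to 4 in limma without a trend (78 of 8801), and to 0 with replicates 3 and 4 only (8 unadjusted), an alternative chosen after seeing the data, in which 0 of 8801 genes passed. Leaving out 1 library gave 3 to 8 calls: 3 without replicate 1 or replicate 2 of either group, 4 without AeMM replicate 4, and 5 without AeEM replicate 4. No member was lower except with library weights, which gave 2 (Marcks and Wasf2) of 47, against 836 of 8801 genes, and 11 higher, against 540 of 8801. The replicate block cannot move a difference of means in a balanced design, so Tmsb10 is at 1.01 there by construction, with an adjusted p of 0.0532, and was at 1.17 with replicates 3 and 4 only (adjusted p = 0.165). With any 1 library left out it was at 0.98 to 1.08 and passed each time, as did Pfn1 and Cfl1, which with Tmsb10 also passed under the other scalings, pseudocounts, filters and weights. All of these are unpaired fits, and with the sets Pfn1 and Cfl1 did not pass (limma adjusted p = 0.0605 and 0.0663). Values in a set of 2 libraries are nearly mirrored. Leaving out either library numbered 1, or either numbered 2, is thus nearly the same omission, and the omissions are not separate checks. Permuting within sets or pairs likewise leaves the Tmsb10 minus Tmsb4x difference at 1.10 by construction, with an exact p of 0.0833 within the 3 sets and 0.125 under the replicate block. No called member changed sign. Those that did lay near 0: with library weights Dstn was at −0.031, Capzb at 0.069, Cdc42 at −0.00069, Msn at −0.10, Rdx at −0.033 and Tln1 at −0.084, and by median-of-ratios scaling Capzb was at 0.0043. Quantile normalization put Rdx at −0.0087 and Tln1 at −0.00051, and rescaling without mitochondrial and ribosomal protein genes put them at −0.0078 and −0.0029. Leaving out 1 library gave −0.22 to 0.030 for Arpc3, −0.051 to 0.019 for Capzb, −0.20 to 0.036 for Was, −0.00015 to 0.057 for Rac1, −0.25 to 0.044 for Ezr, −0.017 to 0.098 for Msn, −0.043 to 0.048 for Rdx, −0.099 to 0.068 for Tln1 and −0.020 to 0.074 for Myl12a. The cause of these changes was not tested. Depth is unknown, so no counting error could be given for genes near 1 TPM.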
